A study of Bos taurus with 8 samples.

Results

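Leukocyte marker genes are a list of 38 genes that mark lymphocytes, macrophages and other white blood cells. Every probe that carries one of these symbols in the platform annotation of the bovine EmbryoGENE array was taken, which gave 44 probes for 35 of the 38 genes. A gene was kept where 3 or 4 heifers of any age had a signal above background for its probe. This left 27 of the 38 leukocyte genes, with 31 probes, among 10206 genes kept on the whole array. By textbook role the list holds 14 lymphoid genes, 11 myeloid genes and 13 genes shared by many leukocytes, of which 8, 9 and 10 were kept.

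Leukocytes are recognised by receptors and signalling proteins that other cells do not make or make at low levels. T cells carry the CD3 complex and the kinases that act behind it, macrophages carry CD68, CD163 and the receptor for colony-stimulating factor 1, and CD45, the product of PTPRC, covers nearly all nucleated cells of the blood lineage. In the mammalian ovary, macrophages and T cells sit mainly in stroma and theca, outside the basement membrane, while granulosa cells line the follicle inside it. In RNA from a mixed cell sample, fewer cells of a type and less RNA per cell cannot be told apart.

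RNA came from the aspirated follicles of 4 Holstein heifers, each sampled when 8, 11 and 14 months old, following progesterone treatment, removal of the dominant follicle and ovarian stimulation with FSH, treatments that all ages shared. On 4 dual-colour arrays each heifer's 8-month RNA was hybridised against her own 14-month RNA, and on 4 other arrays her 11-month RNA against the 14-month RNA, after linear amplification of RNA from pools. Cy5 marked the younger sample of heifers 1 and 2 and the 14-month sample of heifers 3 and 4, with Cy3 on the opposite sample, so a level in 1 channel is open to dye bias, while each comparison holds both dye orientations equally. The labels name granulosa cells throughout, but the series' own design text describes embryos at the blastocyst stage, and this conflict was not settled. The granulosa markers FSHR, the FSH receptor, CYP19A1, aromatase, and AMH, anti-Müllerian hormone, were above background in 16 of 16 channels, and the transcription factor gene FOXL2 in 7. Median probe intensity was 220 to 329 per channel, against 163 to 297 for negative control spots, and 43.3% to 57.3% of probes were above background.

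Members without a probe were CD79B, a subunit of the B cell receptor, ITGAX, the integrin chain CD11c of dendritic cells, and CD52, a surface glycopeptide of lymphocytes. The 8 genes with a probe but too little signal were mainly lymphoid, with CCR7, CD3G, CD5, CD79A and IL7R. The others were the myeloid integrin chain ITGAM, its partner chain ITGB2 and the tetraspanin CD37. Probes of 5 genes, CCR7, CD5, CD79A, IL7R and ITGAM, were not above background in any of the 16 channels. Of the listed B cell genes CD79A and CD79B, 1 was thus too dim and the other not on the array. CD3G was above background in 6 channels, ITGB2 in 5 and CD37 in 4.

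Of the 27 kept genes, 22 met the filter at 8 months, 21 at 11 months and 26 at 14 months, and 18 met it at all 3 ages. CD2, an adhesion receptor of T cells, and CD8A, a co-receptor of cytotoxic T cells, met it at 14 months only, and CSF1R, the receptor for colony-stimulating factor 1, at 11 months only. In all 16 channels, 13 genes were above background, 2 lymphoid, 5 myeloid and 6 shared. Counts over the kept genes leave out the genes that were too dim, and so describe the 27 and not the 38.

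The 14-month sample of heifer 2 stood apart in these genes. On both arrays that carried it, this sample had the highest 14-month level of the 4 heifers for 25 of the 27 leukocyte genes, against 19.3% of all genes. These were 8 of 8 lymphoid genes, 9 of 9 myeloid genes and 8 of 10 shared genes. The exceptions were SRGN and PTPRC. No other heifer had the highest level on both arrays for any leukocyte gene, although over all genes heifer 1 had it for 24.8%, heifer 3 for 7.99% and heifer 4 for 6.08%.

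By size, the 14-month level of heifer 2 exceeded the median of the other 3 heifers by a log2 difference of 1.85 in the median over the 27 genes, against -0.10 over all genes. It was 2.16 for the myeloid, 1.68 for the lymphoid and 1.46 for the shared genes. The same quantity over the 27 genes was 0.03 for heifer 1, -0.32 for heifer 3 and -0.22 for heifer 4. Single genes ran from -0.93 for SRGN to 3.04 for LAPTM5, a lysosomal membrane protein of blood cells, and 26 of 27 were above 0, against 42.8% of all genes. Among myeloid genes LYZ, lysozyme, stood 2.92 higher, AIF1, a calcium-binding protein of macrophages, 2.77 higher and CD163, the haemoglobin scavenger receptor, 2.65 higher. Among lymphoid genes ZAP70, a kinase behind the T cell receptor, stood 2.17 higher, the co-receptor CD4 2.16 higher and CD3E 1.97 higher, while CD2 stood 0.23 higher. The 14-month level of CD2 was above background on both arrays in only heifers 1 and 2. The size of its difference is therefore uncertain.

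Granulosa markers were mixed. Relative to the median of the other heifers, 6 of 18 were higher in that sample, with a median of -0.24 and a range from -2.23 for CYP19A1 to 1.97 for STAR, the cholesterol carrier of steroid synthesis. AMH stood at -1.44 and FSHR at -1.37. Of 5 red blood cell markers, 2 were higher, with a median of -0.25. Among these, HBB, the beta chain of haemoglobin, stood at 1.91 and HBA, the alpha chain, at -0.97. The 14-month levels could be compared between both arrays of a heifer. The median absolute difference over the 27 genes was 0.26, 0.25, 0.18 and 0.24 in heifers 1 to 4, against 0.19, 0.22, 0.23 and 0.25 over all genes. The largest differences were 1.24 for PTPN6, a phosphatase that restrains leukocyte signalling, in heifer 1, 0.81 for TYROBP in heifer 2, and 1.71 and 1.14 for PTPRC in heifers 3 and 4. The part of other cell types in the levels of heifer 2 was not tested.

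**Figure D1:**
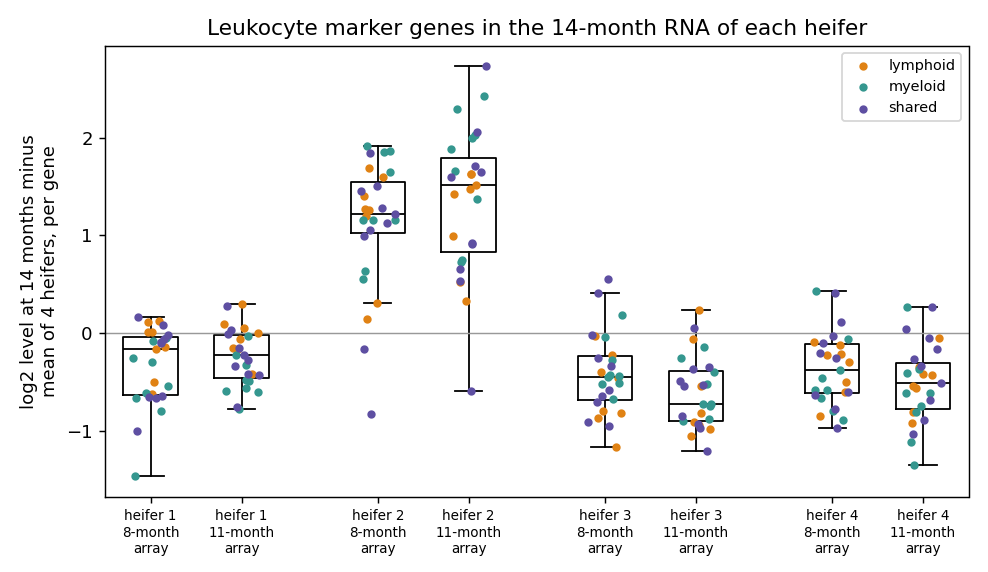
Level of each of the 27 leukocyte genes at 14 months, as normalized log2 intensity minus the mean of the 4 heifers on the same set of arrays. Each point is a gene, coloured by class, boxes show the median and quartiles and whiskers the range without distant points. Both boxes of heifer 2 lie above all others, with SRGN the lowest point of heifer 2 on both sets, below 0.

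Because each ratio has the 14-month sample of the same heifer as its denominator, this sample enters both comparisons of heifer 2, and the medians, the counts of calls and, at 8 months, SRGN, PTPRC, CXCR4, CD3E and CD68 are therefore also given without that heifer. The ratio of 8 to 14 months was lowest in heifer 2 for 22 of 27 leukocyte genes, against 27.9% of all genes. The ratio of 11 to 14 months was lowest in heifer 2 for 21 of 27, against 32.2%. The younger samples of heifer 2 did not stand below those of the other heifers. At 8 months the median level over the 27 genes was 8.60 in heifer 2, against 9.24, 8.64 and 8.31 in heifers 1, 3 and 4, and at 11 months it was 9.50 in heifer 2, against 8.41, 8.54 and 8.63.

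The comparison of 8 with 14 months asks what sets the youngest ovaries apart from the oldest within an animal. Of the 27 leukocyte genes 22 had a fitted log2 ratio below 0, with a median of -0.46, against 48.9% of all genes and a median of 0.01. The heifers differed widely, and heifers 1 to 4 had medians of 0.20, -1.79, 0.00 and -0.33. Below 0 were 10 genes in heifer 1, 25 in heifer 2, 13 in heifer 3 and 20 in heifer 4. The fitted median was -0.01 without heifer 2 and -1.04 without heifer 1. Each of these fits kept only 1 heifer with Cy5 on the younger sample, and she weighed more in it than heifer 3 or heifer 4. The ratio lay below 0 in all 4 heifers for 7 of 27 genes, against 16.2% of all genes, and above 0 in all 4 for 0 of 27, against 17.4%.

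Only SRGN passed limma's test at 8 months, 1 of 27 leukocyte genes, against 4.63% of all genes (0.784% called lower and 3.85% called higher). Before adjustment 7 of 27, or 25.9%, had p under 0.05, against 27.7% of all genes. With 1 gene called, the count was close to the background. It turned on single heifers, with 11 genes called without heifer 1, 3 without heifer 2 and 0 without heifer 3 or heifer 4. In the same fits limma called 5.51%, 7.51%, 0% and 0.163% of all probes, so without heifer 3 or heifer 4 few probes of any kind passed. All 11 genes called without heifer 1 were lower at 8 months in that fit, in which heifer 2 weighed most. AIF1 alone of the 11 was above 0 in both heifer 3 and heifer 4, at 0.45 and 0.05, against -2.79 in heifer 2. Of the 3 genes called without heifer 2, PTPRC and SRGN were lower and CORO1A, coronin 1A of the leukocyte cytoskeleton, higher by 1.33. The ratios of CORO1A at 8 months were 1.51, -1.06, 1.21 and 0.84 in heifers 1 to 4. On the 8-month arrays of heifers 3 and 4 its 14-month level was not above background, so the size of this change is uncertain.

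**Figure D2:**
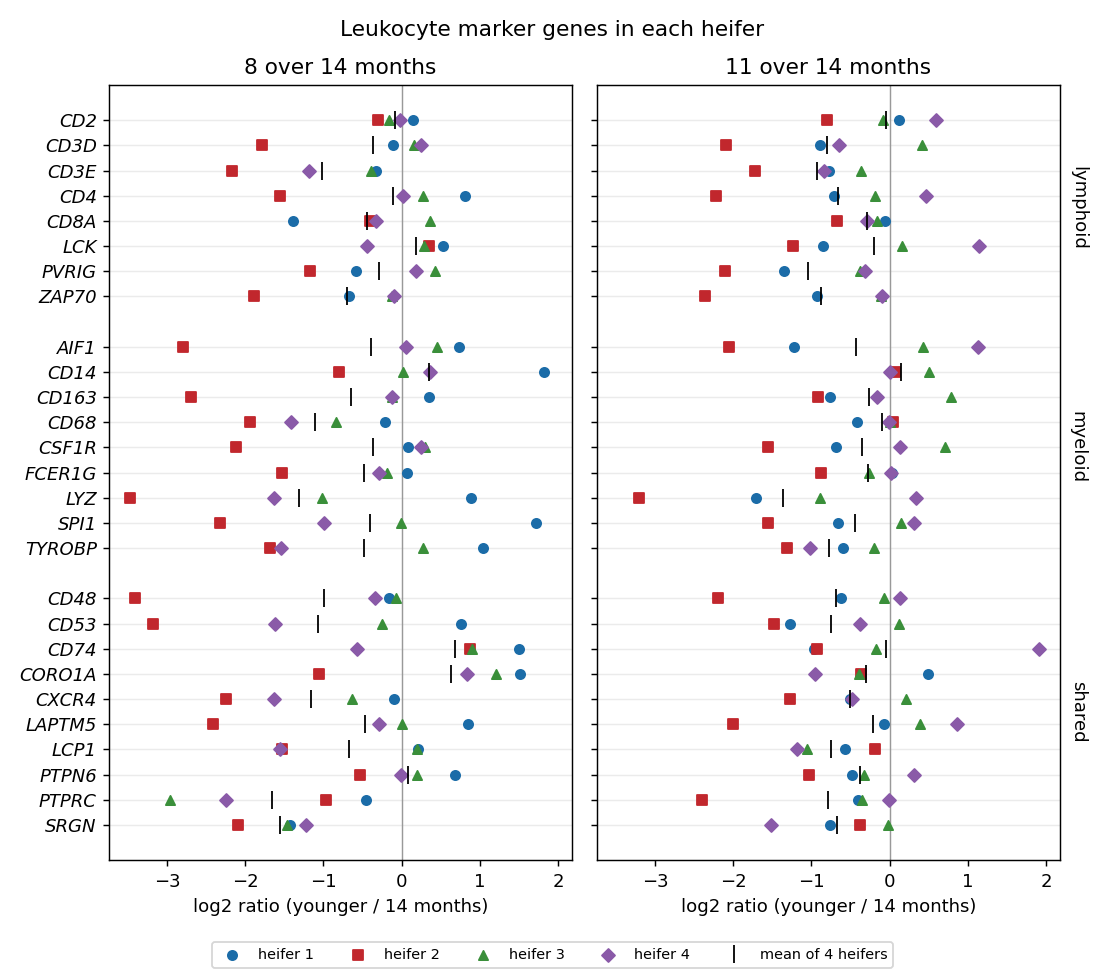
Log2 ratio of the younger age over 14 months for the 27 leukocyte genes, grouped by class, at 8 months (left) and 11 months (right). Coloured symbols are the 4 heifers and black bars their mean; heifer 2 is the lowest for 22 of 27 genes at 8 months and 21 of 27 at 11 months, while the 4 heifers lie close together for SRGN at 8 months, between -2.09 and -1.23.

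Among the shared genes, SRGN encodes serglycin, the proteoglycan core protein that packs secretory granules of leukocytes and is also made by endothelial cells. Its normalized log2 intensity was 13.87, 12.22, 14.22 and 14.02 at 8 months in heifers 1 to 4, against 15.30, 14.30, 15.69 and 15.24 at 14 months on the same arrays. The level at 8 months was lower in every heifer, and even the highest value at 8 months lay just below the lowest at 14 months. SRGN fell by 1.55 on the log2 scale (SE 0.27, SD 0.37 over 4 heifers, adjusted p = 0.0231), 0.341-fold. Without heifer 3 the adjusted p was 0.189 and without heifer 4 it was 0.0749, with values of -1.62 and -1.59, while without heifer 2 SRGN stood at -1.38 and passed (adjusted p = 0.0374). At 11 months SRGN had 14.67, 14.18, 15.18 and 13.89, against 15.42, 14.56, 15.20 and 15.41 at 14 months. These groups overlapped, heifer 3 had nearly equal levels, and the fitted ratio of -0.67 (SE 0.27) did not pass (adjusted p = 0.661).

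The 14-month level of SRGN in heifer 2 was the lowest of the 4 heifers on both arrays, unlike that of most other leukocyte genes. Its ratio at 8 months was -1.43, -2.09, -1.47 and -1.23 in heifers 1 to 4, lowest in heifer 2 here too. All 4 levels at 8 months lay below all 4 levels at 14 months for 3 leukocyte genes, SRGN, PTPRC and CXCR4, against 4.7% of all genes, and at 11 months for 0 of 27, against 0.934%.

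PTPRC had levels of 13.05, 13.03, 11.62 and 12.33 at 8 months in heifers 1 to 4, against 13.50, 14.00, 14.58 and 14.57 at 14 months. The ratio was lowest in heifers 3 and 4, at -2.96 and -2.24, and closer to 0 in heifers 1 and 2, at -0.45 and -0.97. The fitted value was -1.66 (SE 0.50, SD 1.15, adjusted p = 0.095), which did not pass, and -1.72 without heifer 2, which did (adjusted p = 0.0363). The 14-month level of this gene was not stable between arrays. In heifer 3 it was 14.58 beside the 8-month sample and 12.86 beside the 11-month sample, an absolute difference of 1.71 that is at the 97.7th percentile of all genes for that heifer, and in heifer 4 the difference was 1.14, at the 96.1st percentile. The levels of heifers 3 and 4 at 8 months were also the lowest of the 4. The labels name the same animal and age for both readings.

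At 11 months PTPRC had 12.56, 11.92, 12.51 and 13.42, against 12.96, 14.32, 12.86 and 13.43 at 14 months. Only heifer 2 showed a large difference, at -2.40, and the fitted ratio was -0.79 (SE 0.50, adjusted p = 0.675). A further PTPRC probe was not above background in any channel.

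CXCR4 encodes the receptor for the chemokine CXCL12 and is made by leukocytes and other migrating cells. It had levels of 9.98, 9.94, 9.40 and 9.0 at 8 months, against 10.09, 12.19, 10.03 and 10.63 at 14 months. Each heifer was lower at 8 months, heifer 1 by little, and the groups did not overlap. The fitted ratio was -1.15 (SE 0.34, SD 0.97, adjusted p = 0.0897) and -0.74 without heifer 2. At 11 months the ratios were -0.50, -1.27, 0.21 and -0.48, with a fitted value of -0.51 (SE 0.34, adjusted p = 0.676).

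LCP1, the actin-bundling protein plastin of leukocytes, had ratios of 0.20, -1.52, 0.20 and -1.55 at 8 months and of -0.57, -0.19, -1.05 and -1.19 at 11 months. It was lower in all heifers at 11 months but in only heifers 2 and 4 at 8 months, and neither fitted value, -0.67 and -0.75, passed (adjusted p = 0.273 and 0.662). LCP1 was above background at 11 months in heifer 2 alone, and at 8 months not in heifer 4. The sizes of its ratios in heifers 1, 3 and 4 at 11 months and in heifer 4 at 8 months are therefore uncertain. The remaining shared genes, CD48, CD53, LAPTM5, PTPN6, CORO1A and CD74, had fitted ratios from -1.07 to 0.68 at 8 months and from -0.75 to -0.04 at 11 months. Probes of 2 genes disagreed. For LAPTM5 the brightest probe gave -0.46 at 8 months and the other probes 0.04 and -1.22, and for CD48, an adhesion ligand of leukocytes, the brightest gave -0.99 and the other -0.29.

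CD74 is the invariant chain that guides MHC class II molecules, and was the highest of the 27 genes at 8 months, without passing. Its levels were 12.45, 13.17, 11.66 and 9.48 at 8 months, against 10.96, 12.30, 10.76 and 10.05 at 14 months. It was higher at 8 months in heifers 1 to 3 and lower in heifer 4, with a fitted ratio of 0.68 (SE 0.52, adjusted p = 0.459). At 11 months the ratios were -0.96, -0.93, -0.18 and 1.90, so that heifer 4 alone was higher, and the fitted ratio was -0.04 (SE 0.52). BOLA-DRA, the alpha chain of a bovine MHC class II molecule, chosen for naming after its values were seen, had ratios of 0.92, 0.65, 0.19 and -0.76 at 8 months and of -1.20, -1.73, 0.36 and 2.16 at 11 months. It lay on the same side of 0 as CD74 on 7 of the 8 arrays. Over 8 MHC class II genes the medians were 0.15 at 8 months and -0.07 at 11 months, with 6 and 3 genes above 0 and 0 called. Within heifers 1 to 4 the medians of this list were 0.46, -0.28, 0.37 and -0.16 at 8 months. In heifer 2 at 8 months 6 of the 8 genes lay below 0, unlike BOLA-DRA and CD74. At 11 months the list medians were -0.18, -0.92, 0.07 and 1.12.

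Among the lymphoid genes, CD3E encodes a signalling chain of the T cell receptor complex. It had levels of 8.99, 9.26, 8.64 and 8.36 at 8 months, against 9.33, 11.43, 9.03 and 9.54 at 14 months. At 11 months it had 8.76, 9.50, 8.51 and 8.32, against 9.53, 11.22, 8.88 and 9.16 at 14 months. CD3E was lower at the younger age on all 8 arrays, and the sample that stood out was heifer 2 at 14 months. The fitted ratio was -1.02 at 8 months (SE 0.29, SD 0.86, adjusted p = 0.0854) and -0.93 at 11 months (SE 0.29, SD 0.57, adjusted p = 0.661), and at 8 months it was -0.61 without heifer 2.

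ZAP70, the kinase that binds the activated CD3 chains, had ratios of -0.67, -1.89, -0.13 and -0.10 at 8 months and of -0.93, -2.36, -0.11 and -0.10 at 11 months. It was near 0 in heifers 3 and 4 at both ages. At 8 months ZAP70 was above background in only heifers 2 and 3, and on that array of heifer 4 in neither channel. Its 8-month ratios in heifers 1 and 4 are therefore uncertain. The fitted values were -0.69 (SE 0.26, adjusted p = 0.144) and -0.87 (SE 0.26, adjusted p = 0.661). Its other kept probe gave -0.37 at 8 months and 0.05 at 11 months, so the direction at 11 months is not settled.

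PVRIG encodes an inhibitory receptor of T and natural killer cells. At 11 months it was above background in only 2 of 4 heifers, 2 and 4, so its level in heifers 1 and 3 and the size of its ratios there are uncertain. Its levels were 7.37, 7.99, 7.23 and 7.94 at 11 months, against 8.72, 10.10, 7.62 and 8.25 at 14 months. Each heifer was lower at 11 months, heifers 3 and 4 by little, and the groups overlapped. The fitted ratio was -1.04 (SE 0.18, SD 0.85) with an unadjusted p of 0.000309 in limma, and the adjusted p was 0.661. The ratios of heifers 1 to 4 were -1.35, -2.11, -0.38 and -0.32, so they split by dye orientation. The dye term took up this split, and the SE and p leave it out, unlike the SD over heifers. At 8 months the ratios were -0.58, -1.18, 0.42 and 0.19 and the fitted value -0.29 (adjusted p = 0.36).

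CD3D, another CD3 chain, stood at -0.37 at 8 months and -0.80 at 11 months (adjusted p = 0.486 and 0.661), and the helper T cell co-receptor CD4 at -0.11 and -0.66. CD8A, measured well only at 14 months, had ratios of -1.38, -0.41, 0.37 and -0.33 at 8 months and of -0.06, -0.67, -0.16 and -0.28 at 11 months, with fitted values of -0.44 and -0.29 (adjusted p = 0.3 and 0.732). LCK, the kinase that starts T cell receptor signalling, was the highest lymphoid gene at 8 months with ratios of 0.53, 0.35, 0.28 and -0.45 and a fitted value of 0.18 (adjusted p = 0.798). LCK differed from the other T cell genes in heifer 2, where its level of 11.08 at 8 months was no lower than that of 10.73 at 14 months. At 11 months its ratios were -0.86, -1.23, 0.16 and 1.14. CD2 had ratios of 0.14, -0.30, -0.17 and -0.02 at 8 months and of 0.12, -0.79, -0.08 and 0.60 at 11 months, with a fitted value of -0.04 at 11 months, the highest of the lymphoid genes there.

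Among the myeloid genes, CD68 encodes a lysosomal glycoprotein of macrophages. It had levels of 9.79, 9.50, 9.18 and 8.29 at 8 months, against 10.00, 11.45, 10.01 and 9.71 at 14 months. At 11 months it had 9.25, 11.98, 10.01 and 9.45, against 9.67, 11.93, 10.01 and 9.46 at 14 months. All heifers were lower at 8 months, whereas at 11 months heifers 2 to 4 had nearly equal levels at both ages, and heifer 2 was the highest at 11 months as well as at 14 months. The fitted ratio was -1.10 at 8 months (SE 0.28, SD 0.75, adjusted p = 0.0628), -0.78 there without heifer 2 (adjusted p = 0.094), and -0.10 at 11 months (SE 0.28, SD 0.22, adjusted p = 0.935). The ratio of 8 to 11 months through these, 0.498-fold, did not pass either (adjusted p = 0.834).

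LYZ, the bacteriolytic enzyme of macrophages and neutrophils, had levels of 11.06, 10.03, 10.81 and 9.42 at 8 months, against 10.17, 13.50, 11.83 and 11.06 at 14 months. At 11 months it had 9.45, 11.01, 10.64 and 11.16, against 11.16, 14.22, 11.53 and 10.82 at 14 months. It was higher at 8 months in heifer 1 and at 11 months in heifer 4, and lower in the other heifers. With fitted ratios of -1.31 at 8 months and -1.37 at 11 months it had the lowest value of the myeloid genes in both comparisons, but SEs of 0.64 left it short of the threshold (adjusted p = 0.248 and 0.662).

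The adaptor proteins FCER1G and TYROBP, which carry signals of activating receptors in myeloid and natural killer cells, both stood at -0.48 at 8 months (adjusted p = 0.277 and 0.53). FCER1G had ratios of 0.07, -1.52, -0.19 and -0.29 at 8 months and of 0.03, -0.88, -0.27 and 0.02 at 11 months. Its level was not above background at 8 months in heifers 2 and 4 and at 11 months in heifer 3. The sizes of these 3 ratios are therefore uncertain. TYROBP had 1.04, -1.68, 0.27 and -1.55 at 8 months and -0.59, -1.32, -0.19 and -1.02 at 11 months. TYROBP was thus lower in all heifers at 11 months, at a fitted -0.78 (SE 0.43, adjusted p = 0.664), but split in direction at 8 months.

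CSF1R had ratios of 0.08, -2.12, 0.30 and 0.25 at 8 months and of -0.69, -1.55, 0.71 and 0.13 at 11 months, with fitted values of -0.37 and -0.35 (adjusted p = 0.502 and 0.747). It was above background in neither channel on the 8-month arrays of heifers 3 and 4. CD14, the co-receptor for lipopolysaccharide, was the highest myeloid gene in both comparisons, with ratios of 1.82, -0.80, 0.02 and 0.36 at 8 months and of 0.01, 0.07, 0.50 and 0.01 at 11 months. Its fitted values were 0.35 and 0.15 (adjusted p = 0.592 and 0.922), and it was the only gene of the 27 above 0 at 11 months. The transcription factor SPI1, or PU.1, AIF1 and CD163 had fitted ratios of -0.40, -0.39 and -0.65 at 8 months, with heifer 2 lowest in each at -2.32, -2.79 and -2.69.

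**Figure D3:**
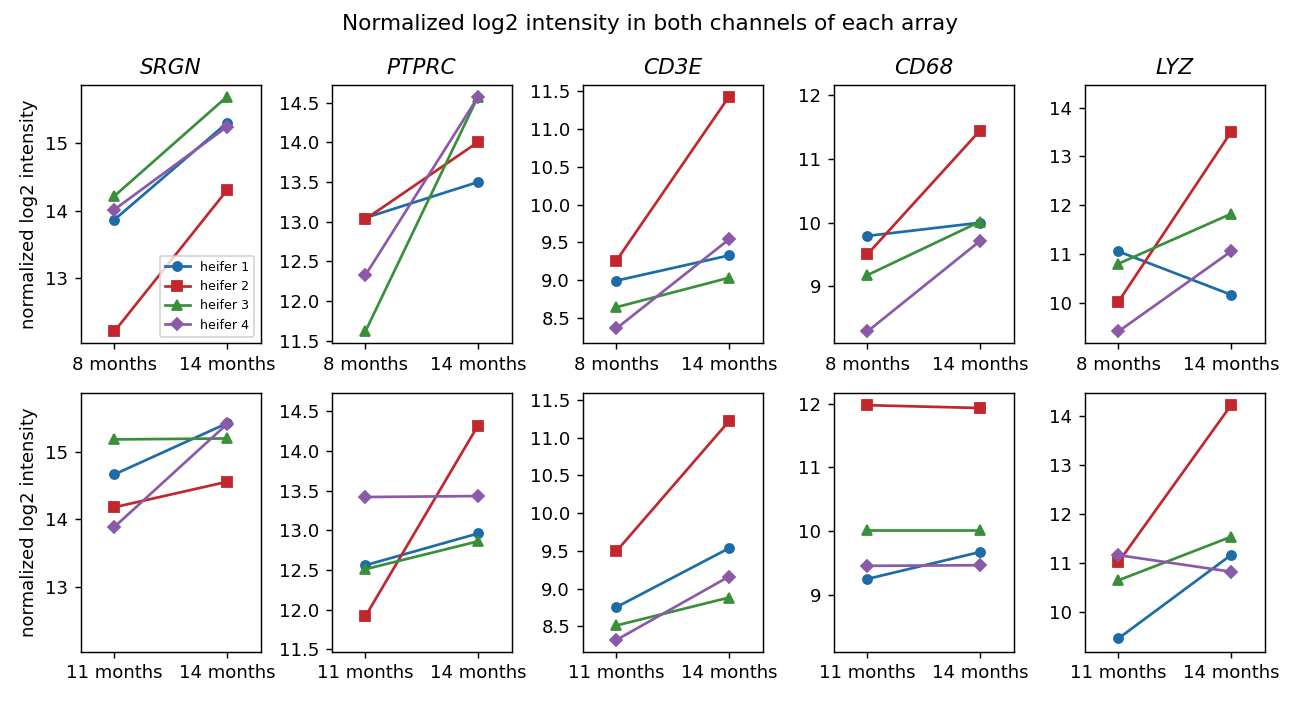
Normalized log2 intensity of 5 leukocyte genes at the younger age (left of each panel) and at 14 months (right), on the arrays of 8 months (top) and 11 months (bottom). Each line is a heifer; SRGN was lower at 8 months in all 4 heifers, while the steepest lines of CD3E and LYZ belong to heifer 2, whose 14-month levels of CD3E were 11.43 and 11.22.

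The comparison of 11 with 14 months asks the same question of an intermediate age. Of the 27 leukocyte genes 26 had a fitted ratio below 0, with a median of -0.44, against 50.7% of all genes and a median of -0.01. Limma called 0 of 27 at this age, where it called 0% of all genes, and before adjustment 5 of 27, or 18.5%, had p under 0.05, against 7.4% of all genes. Heifers 1 to 4 had medians of -0.66, -1.32, -0.08 and -0.01, so heifers 1 and 2 were low and heifers 3 and 4 near 0. Heifers 1 and 2 were also those with Cy5 on the younger sample, so animal and dye cannot be told apart in this split. Below 0 were 23 genes in heifer 1, 25 in heifer 2, 17 in heifer 3 and 14 in heifer 4. Without heifer 2 the fitted median was -0.15. The ratio was below 0 in all 4 heifers for 8 of 27 genes, against 6.38% of all genes, and above 0 in all 4 for 1, CD14, against 7.19%. Both comparisons share the 14-month samples of each heifer, so their common direction is not independent evidence.

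Lymphoid and myeloid genes were set against each other by their medians. At 8 months the fitted medians were -0.33 for 8 lymphoid genes, -0.48 for 9 myeloid genes and -0.83 for 10 shared genes. The lymphoid median minus the myeloid median was 0.15, and within heifers 1 to 4 it was -0.95, 0.75, 0.22 and 0.23, an SD of 0.72 that is larger than the difference. In heifer 1 the myeloid median was 0.73 and the lymphoid median -0.22, whereas in heifer 2 the lymphoid median was -1.37 and the myeloid -2.12. The order of the classes at 8 months was therefore not shared by the heifers.

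At 11 months the fitted medians were -0.73 for lymphoid, -0.35 for myeloid and -0.59 for shared genes. The lymphoid median minus the myeloid median was -0.38, and it was negative in each heifer, at -0.16, -0.59, -0.29 and -0.21, an SD of 0.19. It depended on which genes were counted. With every gene that had a probe, 13 lymphoid and 10 myeloid, the difference was 0.11, and with genes above background in all channels, 2 lymphoid and 5 myeloid, it was -0.12. Below 0 at 11 months were 8 of 8 lymphoid and 8 of 9 myeloid genes, and before adjustment 4 of 8 lymphoid and 0 of 9 myeloid genes had p under 0.05. These 4 were CD3E, ZAP70, CD3D and PVRIG, of which CD3D and PVRIG did not meet the filter at 11 months, so they were kept only through the other ages. The p-values of both classes leave out the difference between heifers 1 and 2 and heifers 3 and 4, which the dye term took up. For CD3D the SE was 0.30 and the SD over heifers 1.03, and for ZAP70 they were 0.26 and 1.06. These p-values therefore do not measure the full spread over animals. The difference between the classes was not tested, since genes of a class are not replicates.

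**Figure D4:**
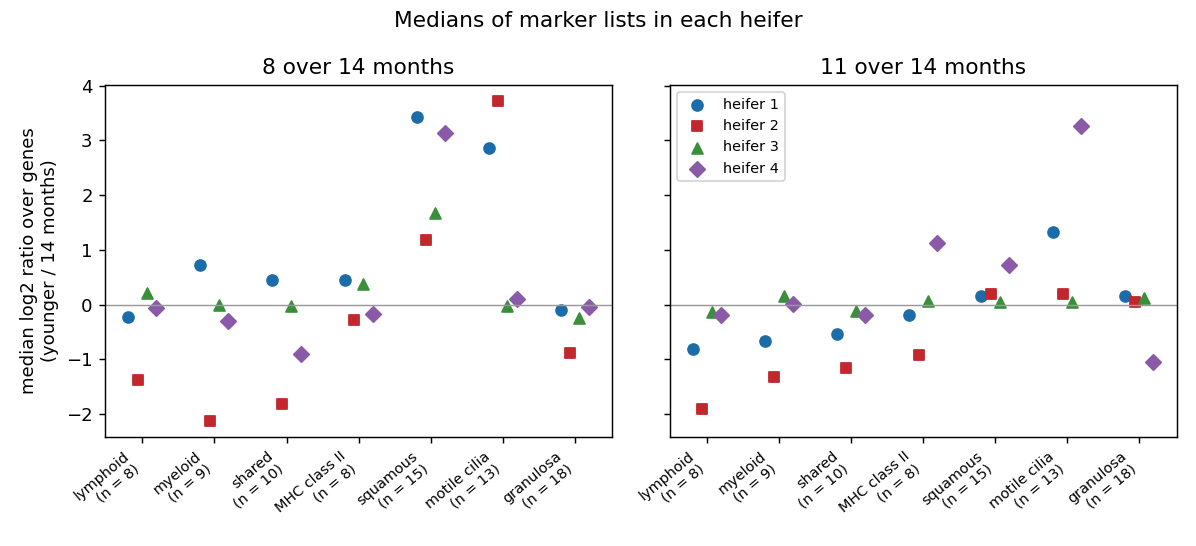
Median log2 ratio of the younger age over 14 months in each heifer for the leukocyte classes and for markers of other cells, at 8 months (left) and 11 months (right), with the number of genes under each list. Squamous markers reach 3.43 in heifer 1 at 8 months and cilia markers 3.72 in heifer 2, while leukocyte medians of heifer 2 lie between -2.12 and -1.15.

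Markers of epithelial cells moved between the same samples. Over 15 squamous epithelium markers the median ratio at 8 months was 3.43, 1.18, 1.67 and 3.13 in heifers 1 to 4, and limma called 10 of them higher. Over 13 motile cilia markers it was 2.86, 3.72, -0.02 and 0.10, with 1 called higher. At 11 months the squamous medians were 0.16, 0.19, 0.06 and 0.72 and the cilia medians 1.32, 0.19, 0.04 and 3.26. Granulosa and theca or stroma markers also had low ratios in heifer 2 at 8 months, with medians of -0.89 over 18 genes and -0.81 over 9, of which 15 and 7 were below 0, but not at 11 months, with medians of 0.05 and 0.04. Heifer 2, with the lowest leukocyte ratios, was the highest of the 4 in cilia markers at 8 months and the lowest in squamous markers. Without the 8-month arrays of heifers 1 and 2, where cilia markers were highest, the fitted median of the 27 genes was -0.81. SRGN then stood at -1.25 (adjusted p = 0.157) and PTPRC passed at -3.21 (adjusted p = 0.0438). The 8-month arrays left in that fit, of heifers 3 and 4, both had Cy3 on the younger sample. Its dye term thus came from the 11-month arrays alone, and its values are open to dye bias. Heifers 3 and 4 themselves had leukocyte medians of 0.00 and -0.33 at 8 months, and PTPRC ratios of -2.96 and -2.24. With both of these list medians as covariates the leukocyte median was -1.61 and limma called 0% of all probes, SRGN standing at -1.50 (adjusted p = 0.25). The part of epithelial, granulosa or stromal RNA in the leukocyte ratios was not tested beyond these fits.

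Further leukocyte genes outside the 38 were read from lists of lymphoid, myeloid and shared markers. Of 61 such genes kept, 49 had a ratio below 0 at 8 months and 47 at 11 months, with medians of -0.31 and -0.30. Of all genes, 48.9% and 50.7% lay below 0. The heifers differed here too, with medians over the 61 genes of 0.28, -1.14, -0.18 and -0.26 at 8 months in heifers 1 to 4. Below 0 at 8 months were 20 genes in heifer 1 and 53 in heifer 2. At 11 months the medians were -0.26, -0.84, -0.05 and -0.09. In the 14-month sample of heifer 2 the 61 genes were higher than the median of the other heifers by a median of 1.01, with 52 above it. Limma called 1 of the 61 at 8 months, against 4.63% of all genes. It was DOCK8, an exchange factor needed for lymphocyte migration, at -0.89 (adjusted p = 0.0452), with ratios of -0.19, -0.78, -0.85 and -1.72. It was lower in every heifer and did not have its lowest value in heifer 2.

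Of 17 further lymphoid genes, 15 lay below 0 at 8 months and 16 at 11 months, with medians of -0.37 at both ages. They ran from IL2RA, a chain of the interleukin 2 receptor, at -1.23 to the granzyme gene GZMA at 0.25 at 8 months, and from GNLY, granulysin of cytotoxic cells, at -1.14 to CD27, a co-stimulatory receptor, at 0.13 at 11 months. GNLY had ratios of -3.89 and -3.61 in heifer 2 at both ages and between -0.49 and 0.33 in the other heifers. The B cell genes MS4A1, CD22, BLK and CR2, chosen for naming after their values were seen, were kept and stood 1.90, 1.98, 2.05 and 1.64 above the median of the other heifers in the 14-month sample of heifer 2. Of 19 further shared genes, 18 and 16 lay below 0, with a median of -0.36 at 8 months and -0.37 at 11 months. The lowest at 8 months was EVI2B, a membrane protein of blood cells, at -1.44, and at 11 months LCP2, an adaptor of T cell receptor signalling, at -1.28, and the highest were the transcription factor gene RUNX3 at 0.11 and the cytokine receptor chain IL2RG at 0.09.

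The 25 further myeloid genes were mixed, with 16 below 0 at 8 months and 15 at 11 months and medians of -0.13 and -0.21. They ran from the cytokine gene IL1B at -1.80 to S100A9 at 3.01 at 8 months. S100A9, which neutrophils and also squamous epithelium make, had ratios of 5.30, -1.10, 3.68 and 4.17 (adjusted p = 0.0702), so only heifer 2 was lower. At 11 months the list ran from FCGR3A, an antibody receptor of natural killer cells and macrophages, at -1.55 to GPNMB, a glycoprotein of macrophages, at 0.59.

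Ligands of the listed receptors had 5 of 14 genes kept and 0 called. CXCL12, CSF1, IL7, CCL19 and CCL21, the ligands of CXCR4, CSF1R, IL7R and CCR7, were among those not kept. Of the others, IL34, a further ligand of CSF1R, stood at -0.30 at 8 months and -0.36 at 11 months, and MIF, a ligand of CD74, at 0.97 and 0.17 (adjusted p = 0.0819 at 8 months). HBB, chosen for naming after its values were seen, had ratios of -4.01 at 8 months and -3.13 at 11 months in heifer 2, and between -0.62 and 0.85 in the other heifers. The red blood cell list as a whole did not go the same way in heifer 2. Over its 5 genes the median ratio there was 0.25 at 8 months and 0.46 at 11 months, with 3 genes above 0 at each age.

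Between 8 and 11 months, ages that were hybridised on separate arrays and so cannot be told apart from the array sets, the median fitted difference over the 27 genes was 0.04, with 13 genes below 0, against 46.1% of all genes. Limma called 0 of 27, as it called 0% of all genes, and 3 genes, or 11.1%, had an unadjusted p under 0.05, against 6.28% of all genes. These were PVRIG at 0.75, higher at 8 months, and CD68 (0.498-fold) and SRGN at -0.89, lower at 8 months.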

How the data were processed

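The scanner tables that the authors deposited hold median and mean pixel intensity per spot and channel, per the file headers, without background correction or normalization. The authors also deposited a table of log2 ratios, which followed Cy5 over Cy3 of the same spots (correlations from 0.9995 to 1 over probes, slopes from 0.99 to 1, column medians from -0.02 to 0.00083). The submitters' normalization is not given in the sources. The 38 members, their classes, the other gene lists and the alternatives were chosen with earlier results of these data known.

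Median intensities were corrected by normexp (offset 50) and log2 ratios normalized by loess within arrays in limma 3.58.1 under R 4.3.3, leaving out control spots and the 22 to 59 spots per array marked as ignored. A probe was above background where it exceeded the mean of 153 negative control spots by 2 SD. Of 43794 probes 22692 were kept, and the brightest kept probe stood for a gene. Symbols came from the platform annotation, with 21790 probes of 1 symbol, 22004 of none and 0 of several, and 1524 symbols were updated through the RefSeq gene table of ARS-UCD2.0. The model held a term for each younger age and a dye term, with the heifer as a random block (correlation 0.159), over all 8 arrays. Benjamini-Hochberg adjustment ran over the kept probes with a threshold of 0.05, and adjusted p-values are limma's throughout. The contrast of 8 with 11 months is the difference of both age terms. Levels per channel were scaled between arrays by Aquantile. Genes without a value on every array were left out of counts over levels. The pipeline was tested on simulated data. Replicates are separate animals, and per the labels both comparisons use the same 4 animals, which pairs them, with correlations of deviations of 0.38, 0.27, 0.45 and -0.11 in heifers 1 to 4. The number of arrays limits the precision.

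Ratios of each heifer are named for genes past the threshold, for the 3 genes of each class with the smallest p, for both ends of each class and for PTPRC, CD3E, CD68, CSF1R, CD74 and CXCR4. From other lists only called genes and the lowest and highest are named, unless stated. No sequences are printed.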

Additional observations from a re-analysis of the deposited data

Results flagged for a closer look

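In 6 of 64 sets of 4 heifer values, 1 heifer lay far from the other 3 by Dixon's criterion, which chance meets in about 5 of 100. Heifer 2 was the distant one in 4 of them. At 8 months its ratio was -2.69 for CD163, against -0.12 to 0.34 in the other heifers, -2.12 for CSF1R, against 0.08 to 0.30, and -3.41 for CD48, against -0.35 to -0.07. The 8-month level of CD48 in heifer 2 was not above background, and its other kept probe gave -0.45 there. CSF1R was above background in neither channel on the 8-month arrays of heifers 3 and 4. At 11 months its ratio was -2.40 for PTPRC, against -0.40 to -0.01. The other sets were at 11 months, where CD14 stood at 0.50 in heifer 3, against 0.01 to 0.07, and CD68 at -0.42 in heifer 1, against -0.01 to 0.04.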

How the results depend on the processing

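Between 8 and 14 months the 1 called leukocyte gene became 2 with median centring, a dye term per comparison or only the arrays of that comparison (PTPRC and SRGN in each, with 7.53%, 8.90% and 14.3% of all probes called), 2 of 13 with signal above background in all channels (CD68 and SRGN, with 7.42%), 3 with the replicate block as a fixed effect (CD3E, CXCR4 and SRGN, with 4.05%), 5 with array weights (with 15.7%, so near the background), and 0 with mean pixel intensities (with 4.22%) or with the medians of squamous and cilia markers as covariates (with 0%). It stayed 1 with no replicate block, no dye term, no filter, no background correction, the authors' log2 ratios or the mean of a gene's probes, and it ranged from 0 to 11 when a heifer was left out. The share of all probes called ran from 0% to 15.7%. SRGN kept its direction in all 19 settings and was called in 14, with adjusted p from 0.00647 to 0.25. The median over leukocyte genes was -1.61 with the covariates and -1.02 above background in all channels, and ran from -1.04 to -0.01 when a heifer was left out (without heifers 1 and 2). At 11 months it ran from -0.67 to -0.15, with -0.75 with the covariates, and between 8 and 11 months from -0.29 to 0.15, with -1.08 with the covariates. The lymphoid minus myeloid median at 8 months was 1.20 with the covariates and -0.14 to 0.64 when a heifer was left out. At 11 months it was 0.11 with no filter, -0.12 above background in all channels, -0.19 with the mean of a gene's probes, and -0.44 to -0.29 when a heifer was left out. With genes above background at both ages, an alternative chosen after seeing the data, the medians were -0.47 and -0.48. The 14-month excess of heifer 2, also tried after seeing the data, was 2.04 without scaling between arrays, 2.03 with median centring and 1.66 without background correction. Of 499 gene values at 8 months 23 changed direction, of 472 at 11 months 11, and of 445 between 8 and 11 months 39. The replicate block as a fixed effect changed no call at 11 months or between 8 and 11 months. Causes of these shifts were not tested.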

Other observations

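The probe of CCR7, the receptor that guides lymphocytes to lymph nodes, was not above background in any channel, yet its ratio of the younger age over 14 months was below 0 in heifers 1 and 2 and above 0 in heifers 3 and 4 in both comparisons. The values were -0.50, -0.68, 0.42 and 0.55 at 8 months and -0.44, -0.53, 0.43 and 0.41 at 11 months, and the sign followed the dye of the younger sample on all 8 arrays. Each heifer kept her dye orientation in both comparisons, so the sign followed the animal as well, and animal and dye cannot be told apart. CD3G, a CD3 chain with a level above background in 6 of 16 channels, had ratios of -1.55 at 8 months and -1.78 at 11 months in heifer 2 and of 1.56 at 11 months in heifer 4. ITGB2, the integrin chain shared by leukocytes, had -1.43 at 8 months in heifer 2 and lay below 0 on 7 of 8 arrays. CD37 had -0.75 and -1.12 in heifer 2 and was above 0 on the other 6 arrays.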
